A study of Mus musculus with 8 samples.

Results

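The genes described here build the kinetochore, the protein layer that joins each chromosome to the spindle, or run the spindle checkpoint that acts from it. They were taken from a list of 36 named genes. For each gene the array probe sets annotated to it alone were collected, and the probe set with the highest mean over the 8 arrays stood for the gene. All 36 had such a probe set, among 13307 genes with at least 1 on the table. RNA came from primary fibroblasts of mouse embryos (MEFs), cells taken straight from the animal and not immortalised. There were 4 Cry DKO lines, which carry Cry1-/- and Cry2-/- and so lack both cryptochromes, the repressors of the circadian clock, and 4 WT lines. Each array held 1 independent line. Both genotypes had a near-C57BL/6J background (more than 7 backcrosses from BL6/129 mice), were not treated, and grew without synchronisation in medium with 10% serum at 3% oxygen. Neither the age of the embryos nor the sex of a line is stated.

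Every chromatid carries a kinetochore at its centromere. CENP-A, a histone H3 variant, marks the place, and the proteins of the constitutive centromere-associated network (CCAN) bind there through the whole cell cycle. In mitosis they recruit the MIS12 and NDC80 complexes, which grip the microtubules of the spindle. Kinetochores without microtubules recruit the checkpoint proteins, which keep CDC20 from switching on the anaphase-promoting complex (APC/C), the ubiquitin ligase that starts chromosome separation. The chromosomal passenger complex, which carries the kinase Aurora B, corrects wrong attachments. RNA of many of these genes is known to rise in G2 and mitosis through promoter elements called CHR, bound by the DREAM and MuvB complexes, and CCAAT boxes, bound by NF-Y.

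The start regions below are shown because the members moved together in these data and these elements are known from such genes. They belong to Ttk and to the member of smallest p in each of the 5 layers (RefSeq, assembly GRCm38.p6). Each run is 150 bases long, from base -120 relative to the transcription start to base 30 of the transcript, 5′ to 3′. Capitals mark matches on either strand. CHR letters were searched as TTTGAA and, as a second form, with the letters TTCGAA. The CCAAT box was searched as named. The E-box, which the clock factors CLOCK and ARNTL bind, was searched as CACGTG. Positions are chr9:83834569-83834718 (plus strand) for Ttk, chr2:127831830-127831979 (minus strand) for Bub1, chr5:30666766-30666915 (plus strand) for Cenpa, chr2:69206184-69206333 (minus strand) for Spc25, chr11:117849117-117849266 (plus strand) for Birc5 and chr4:118437314-118437463 (minus strand) for Cdc20.
Ttk: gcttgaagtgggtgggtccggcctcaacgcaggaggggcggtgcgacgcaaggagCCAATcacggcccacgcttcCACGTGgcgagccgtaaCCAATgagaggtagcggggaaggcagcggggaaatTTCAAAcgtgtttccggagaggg
Bub1: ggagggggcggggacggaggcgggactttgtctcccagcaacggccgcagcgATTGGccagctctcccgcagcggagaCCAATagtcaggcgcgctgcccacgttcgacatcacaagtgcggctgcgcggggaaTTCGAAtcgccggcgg
Cenpa: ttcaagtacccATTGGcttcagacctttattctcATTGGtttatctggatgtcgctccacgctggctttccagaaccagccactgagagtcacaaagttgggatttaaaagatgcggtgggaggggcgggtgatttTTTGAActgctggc
Spc25: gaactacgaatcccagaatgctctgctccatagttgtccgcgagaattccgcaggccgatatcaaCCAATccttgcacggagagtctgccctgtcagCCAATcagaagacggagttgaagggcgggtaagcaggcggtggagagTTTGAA
Birc5: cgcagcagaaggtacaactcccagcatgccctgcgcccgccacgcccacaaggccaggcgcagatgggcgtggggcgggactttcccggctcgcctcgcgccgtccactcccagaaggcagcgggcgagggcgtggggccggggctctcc
Cdc20: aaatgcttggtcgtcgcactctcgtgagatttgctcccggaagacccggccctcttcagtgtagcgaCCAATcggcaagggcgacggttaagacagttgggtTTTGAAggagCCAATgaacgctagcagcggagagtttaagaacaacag

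Ttk, Bub1, Cenpa, Spc25 and Cdc20 each hold a pair of CCAAT boxes upstream of, or next to, CHR letters near the start, and Ttk has an E-box between its CCAAT boxes. Birc5 has none of these letters in this stretch. The promoter table held 32 of the 36 genes, with 36 start regions of 300 bases (250 before the start and 50 after). CHR letters stood in 18 of the 36 regions, or 50%, against 19.2% of all 32851 regions in the table. At least 2 CCAAT boxes stood in 17 of 36, or 47.2%, against 11.7% of all regions, and CHR letters together with CCAAT in 16 of 36, or 44.4%, against 7.52%. CHR letters and CCAAT shared bases in 2 of the 36 regions. The E-box was in 2 of 36, or 5.56%, against 7.15% of all, and the other member region with it was a start of Mad1l1. Of the members whose rise is reported below, 15 were in the table and 10 had CHR letters with CCAAT. Of the members that did not pass the test, 17 were in the table and 5 had that pair. The last 2 counts are of genes with the pair in any of their start regions, while the shares above are of regions. Regions of the same gene can overlap and hold the same letters, as those of Bub3 appear to, so the regions are not independent. These are counts of letters, not of sites in use, and a part of such letters in the rise was not tested.

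Kinetochore and checkpoint genes were higher in Cry DKO lines. Of the 36 members 35 were bright enough to test, and 18 of them, or 51.4%, rose, while none fell. Over all 9515 tested genes 9.17% passed, with 4.95% rising and 4.22% falling. Macrophage and blood cell markers rose in the same lines (10 of 17, median 0.78), and with their mean as a covariate 0 of the 35 members passed (median 0.35), as described at the end. The members' median difference was 0.41 on the log2 scale, about 1.32-fold, where the median of all tested genes was -0.01. Each difference is the mean of the 4 Cry DKO lines less that of the 4 WT lines, in log2 units. No source states the log base, which was read from the span of the values, and the folds depend on it. "Rose" means an adjusted p under 0.05 in limma, a linear model fitted over all 9515 genes with Benjamini-Hochberg adjustment. Among the risers the differences ran from 0.38 to 0.79, 1.3-fold to 1.73-fold, and the lines of the genotypes did not overlap for any of the 18. Groups without overlap and higher in Cry DKO were found for 25 of 35 members, against 8.31% of all tested genes. No member had groups without overlap and lower in Cry DKO, against 8.44% of all. In RNA from whole cultures, a change in the share of cells of any phase or type and a change of RNA per cell cannot be told apart.

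**Figure D1:**
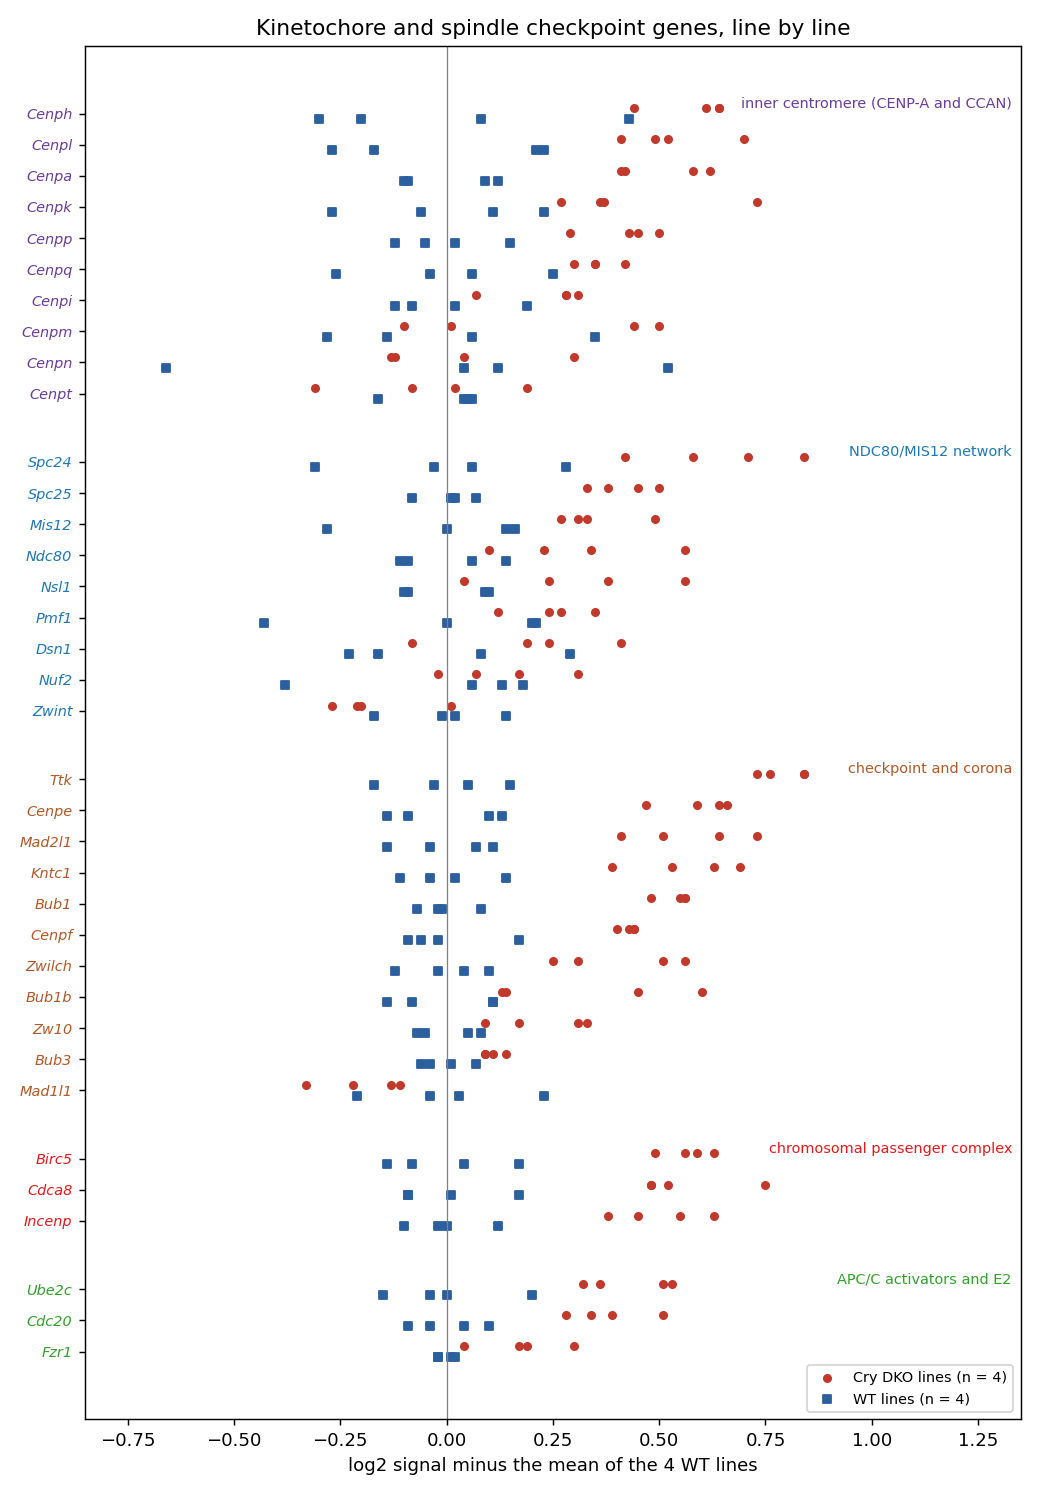
Each row is a member gene, grouped by layer, and each point is 1 line (red circles, Cry DKO; blue squares, WT; n = 4 each); the x axis is the log2 signal minus the mean of the 4 WT lines. In 25 of the 35 tested members all 4 Cry DKO lines lie right of all 4 WT lines, while Zwint, Mad1l1 and Cenpt have means left of 0.

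Some facts of the arrays bear on all that follows. Array medians lay between 6.78 and 6.79, and correlations between arrays were 0.973 to 0.977 within and 0.967 to 0.975 between genotypes. Cry1 had 6.29 ± 0.31 in Cry DKO and 6.79 ± 0.40 in WT lines (SD, n = 4), and Cry2 had 6.87 ± 0.20 in Cry DKO and 7.20 ± 0.18 in WT lines. Neither passed (limma adjusted p = 0.168 and 0.132), and no source says where their probes lie relative to the deleted parts. Fibroblast markers such as Col1a1 and Pdgfrb were bright (13.20 and 11.68 in Cry DKO, 13.40 and 11.85 in WT). None of the 9 tested markers passed, but all 9 had negative differences, from -0.23 to -0.06. Of these, Col1a1 had groups without overlap, as 8.44% of all tested genes did in that direction. Pdgfra, Dcn and Lum were below the floor for testing. Eif2s3y, a Y-linked gene, was at 0.61 and 2.97 in Cry DKO lines 1 and 4 and at 2.83 in WT line 1, against 9.04 to 9.42 in the other lines. With the mean of the 3 Y-linked genes on the table as a covariate, 15 of the 35 members rose, and 298 of all 9515 tested genes.

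In the checkpoint and corona layer 7 of 11 members rose, against 4.95% of all tested genes, with a median of 0.43. Ttk, the kinase also called MPS1 that starts checkpoint signalling, had 8.01, 8.12, 8.12 and 8.04 in Cry DKO lines 1 to 4 and 7.33, 7.11, 7.25 and 7.43 in WT lines 1 to 4. The lowest Cry DKO line stood far above the highest WT line. The difference was 0.79 (SE 0.09, limma adjusted p = 0.00079), the largest among the 35 members.

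Bub1, the kinase that loads other checkpoint proteins onto the kinetochore, had 9.29, 9.36, 9.37 and 9.37 in Cry DKO lines and 8.89, 8.74, 8.79 and 8.80 in WT lines. The spread within each genotype was small beside the difference of 0.54 (SE 0.06, limma adjusted p = 0.00079). Mad2l1, whose protein MAD2 binds and holds CDC20, had 10.11, 10.21, 10.34 and 10.43 in Cry DKO lines and 9.77, 9.56, 9.66 and 9.81 in WT lines. Its difference was 0.57 (SE 0.08, limma adjusted p = 0.00283), with no overlap between genotypes.

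Of the fibrous corona, the outermost kinetochore shell, Cenpe, a kinesin motor that carries chromosomes along microtubules, rose by 0.59 (SE 0.09, limma adjusted p = 0.00299). Cenpf, a large coiled-coil protein, rose by 0.43. The RZZ complex brings MAD1 and dynein to the kinetochore, and of its subunits Kntc1, which encodes ROD, rose by 0.56 and Zwilch by 0.41. The third subunit, Zw10, which also acts in transport between ER and Golgi, had a difference of 0.22 (95% interval 0.05 to 0.38) that did not pass (limma adjusted p = 0.0937). The call of Zwilch ended without WT replicate 3 (adjusted p = 0.0583) and with each gene on its own spread (0.0729), and that of Cenpf with all its probe sets averaged (difference 0.50, adjusted p = 0.0537).

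The remaining checkpoint members did not pass. Bub1b, whose protein BUBR1 sits in the mitotic checkpoint complex, differed by 0.33 and Bub3, its partner, by 0.11 (95% interval 0.00 to 0.21), both with genotypes that did not overlap. Mad1l1, the anchor of MAD2 at the kinetochore, had 6.71, 6.73, 6.62 and 6.51 in Cry DKO lines and 7.07, 6.63, 6.87 and 6.80 in WT lines. The genotypes overlapped through WT line 2, and the difference was -0.20 (95% interval -0.47 to 0.07, limma adjusted p = 0.336). MAD1 and MAD2 work as a complex, and their 2 genes had differences of opposite sign here, of which that of Mad2l1 passed.

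All 3 members of the chromosomal passenger complex rose, against 4.95% of all tested genes. Birc5, survivin, which docks the complex on chromatin, had 10.00, 10.10, 10.07 and 10.14 in Cry DKO lines and 9.68, 9.37, 9.43 and 9.55 in WT lines. WT line 1 was the highest of its group and still below every Cry DKO line, and the difference was 0.57 (SE 0.07, limma adjusted p = 0.00187). Incenp, the scaffold that holds and activates Aurora B, had 10.40, 10.22, 10.15 and 10.32 in Cry DKO lines and 9.89, 9.75, 9.67 and 9.77 in WT lines, a difference of 0.50 (SE 0.07, limma adjusted p = 0.00276). Cdca8, borealin, had 9.58, 9.54, 9.54 and 9.81 in Cry DKO lines and 9.23, 9.07, 8.97 and 8.97 in WT lines. Its difference was 0.56 (SE 0.08, limma adjusted p = 0.00315). The 3 differences of this complex lay between 0.50 and 0.57.

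In the inner centromere layer 4 of 10 members rose, against 4.95% of all tested genes, with a median of 0.38. Cenpa had 9.61, 9.77, 9.60 and 9.81 in Cry DKO lines and 9.31, 9.10, 9.28 and 9.09 in WT lines. The genotypes did not overlap, and the difference was 0.50 (SE 0.08, limma adjusted p = 0.00378). Of the CCAN, Cenpp, a subunit of the CENP-O group, had 7.45, 7.43, 7.29 and 7.50 in Cry DKO lines and 7.02, 6.95, 7.15 and 6.88 in WT lines. It rose by 0.41 (SE 0.10, limma adjusted p = 0.0257). Cenph, of the CENP-H, I, K and M group, had 7.29, 7.12, 7.32 and 7.32 in Cry DKO lines and 7.11, 6.38, 6.76 and 6.48 in WT lines. WT line 1 nearly reached the lowest Cry DKO line, and the difference was 0.58 (SE 0.15, limma adjusted p = 0.0386).

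Cenpl, a partner of CENP-N, rose by 0.53 (limma adjusted p = 0.0482). The calls of Cenpl, Cenph and Cenpp were the least stable of the 18: they were lost in 8, 7 and 6 of the 8 fits that leave out 1 array, with differences in those fits of 0.44 to 0.60, 0.48 to 0.63 and 0.37 to 0.42. Cenph kept its call without WT replicate 1 alone, and Cenpp without Cry DKO replicate 3 or WT replicate 3. All 3 calls also ended with the Y-linked covariate, those of Cenph and Cenpl with array weights or each gene on its own spread, and that of Cenpp with its probe sets averaged (adjusted p = 0.0871). Cenpk (0.43, limma adjusted p = 0.0566) and Cenpq (0.35, adjusted p = 0.0619) had genotypes that did not overlap but did not pass. Cenpi and Cenpm had 0.23 and 0.22, and Cenpt, which links the CCAN to the NDC80 complex, had -0.04 (95% interval -0.27 to 0.18). Cenpn, which reads CENP-A nucleosomes, had 7.93, 8.19, 7.76 and 7.77 in Cry DKO lines and 7.23, 8.01, 7.93 and 8.41 in WT lines. The WT lines surrounded the Cry DKO lines, and the difference was 0.02 (SE 0.20, limma adjusted p = 0.965); without WT replicate 1 it was -0.20.

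The NDC80/MIS12 network is the part that grips microtubules. It had 2 risers among 8 tested members, against 4.95% of all tested genes, and a median of 0.28. Both risers belong to the inner end of the NDC80 complex, which attaches it to the kinetochore. Spc25 had 8.79, 8.74, 8.86 and 8.91 in Cry DKO lines and 8.42, 8.33, 8.48 and 8.43 in WT lines. The genotypes did not overlap, and it rose by 0.41 (SE 0.07, limma adjusted p = 0.00517). Averaged with its second probe set, which was below the floor and had 0.04, Spc25 had 0.22 and did not pass (adjusted p = 0.335). Its partner Spc24 had 7.05, 7.18, 6.89 and 7.31 in Cry DKO lines and 6.53, 6.75, 6.44 and 6.16 in WT lines. Its difference was 0.64 (SE 0.14, limma adjusted p = 0.0221). That call was lost without Cry DKO replicate 2, Cry DKO replicate 4 or WT replicate 3 (adjusted p of 0.0521, 0.0512 and 0.0596) and with each gene on its own spread (0.0822).

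The subunits of the outer, microtubule-binding end did not pass. Ndc80, also called HEC1, had a difference of 0.31 (95% interval 0.06 to 0.56, limma adjusted p = 0.118). Nuf2, its partner, had 7.56, 7.75, 7.65 and 7.89 in Cry DKO lines and 7.76, 7.71, 7.64 and 7.20 in WT lines. The genotypes overlapped broadly, with a difference of 0.13 (95% interval -0.15 to 0.42, limma adjusted p = 0.558). The 4 subunits of the NDC80 complex thus had differences from 0.13 to 0.64, and whether they differ from each other was not tested.

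Of the MIS12 complex, the platform that receives NDC80, Mis12 itself had 8.17, 8.11, 8.33 and 8.15 in Cry DKO lines and 7.98, 7.56, 8.0 and 7.84 in WT lines. The genotypes did not overlap, yet the difference of 0.35 did not pass (SE 0.10, limma adjusted p = 0.0609). Pmf1 and Dsn1 had 0.25 and 0.19, with overlap. Nsl1, the 1 member not tested, was dim at 5.58 ± 0.22 in Cry DKO and 5.28 ± 0.11 in WT lines (SD, n = 4), below the floor of 6.05. Fitted without a floor its difference was 0.31 (SE 0.18, limma adjusted p = 0.363). Zwint, a partner of KNL1, had 10.94 ± 0.12 in Cry DKO and 11.11 ± 0.13 in WT lines (SD, n = 4), which overlapped. Its difference of -0.16 did not pass (95% interval -0.33 to 0.01, limma adjusted p = 0.22) and was -0.02 with its probe sets averaged.

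**Figure D2:**
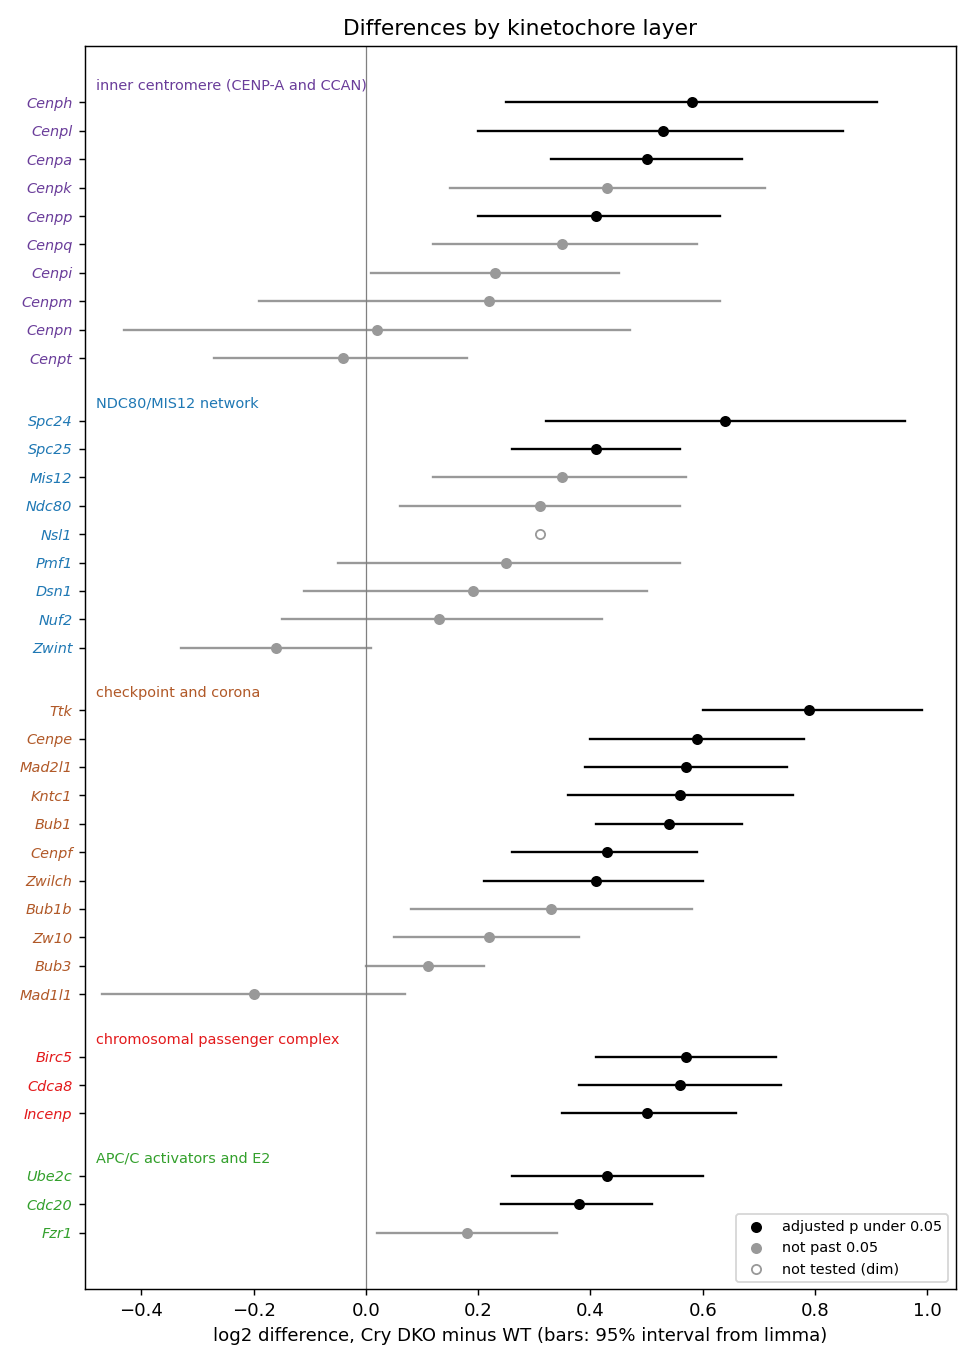
Points are the log2 differences, Cry DKO minus WT, of the 36 members in their 5 layers, with 95% intervals from limma; black marks an adjusted p under 0.05, grey not, and the open circle is Nsl1, which was not tested. The 3 passenger genes and 7 of 11 checkpoint and corona genes are black. So are 4 of 10 in the inner centromere, 2 of 8 in the NDC80/MIS12 network and 2 of 3 in the APC/C layer. Of all tested genes 4.95% rose. Mean WT signal was 9.45, 8.39, 7.42, 7.87 and 9.90 in these layers, in that order. Their median differences were 0.56, 0.43, 0.38, 0.28 and 0.38, and whether the layers differ was not tested.

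Among the genes that act on the APC/C, 2 of 3 rose, against 4.95% of all tested genes. Cdc20, the activator that the checkpoint restrains, had 11.28, 11.39, 11.51 and 11.34 in Cry DKO lines and 11.10, 10.96, 11.04 and 10.91 in WT lines. All Cry DKO lines were higher, by 0.38 on average (SE 0.06, limma adjusted p = 0.00523). Ube2c, the ubiquitin-conjugating enzyme that starts chains on APC/C substrates, had 10.99, 11.01, 10.84 and 10.80 in Cry DKO lines and 10.68, 10.48, 10.33 and 10.44 in WT lines, a difference of 0.43 (SE 0.08, limma adjusted p = 0.00906), a call lost with each gene on its own spread (adjusted p = 0.0646). Fzr1, whose protein CDH1 activates the APC/C at mitotic exit and in G1, had 8.51, 8.38, 8.25 and 8.40 in Cry DKO lines and 8.19, 8.22, 8.19 and 8.23 in WT lines. Its WT lines were nearly equal and just below the lowest Cry DKO line, and the difference of 0.18 did not pass (95% interval 0.02 to 0.34, limma adjusted p = 0.16). Fzr1 is the 1 member whose gene lies within 10 Mb of Cry1 or Cry2, on the Cry1 side, in assembly GRCm38.p6. The stretch around a targeted gene can keep DNA of the 129 strain after backcrossing, and its part in the value of Fzr1 was not tested. The limit of 10 Mb was a choice, and whether such DNA reaches members further off was not tested either. The 36 genes lie on 16 chromosomes.

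Other genes of the pathway were read from 5 further lists. Subunits of the APC/C itself gave no call: 0 of 14 passed in limma, with 2 at an unadjusted p under 0.05 and 0 calls in each of the alternatives in which the list was tested. Since 9.17% of all tested genes passed and 25.3% had an unadjusted p under 0.05, a count of 0 in 14 lies near the background. Their median was 0.03. Anapc15, needed for checkpoint turnover, had 0.25 (limma adjusted p = 0.0756), Anapc5 had 0.11 and Anapc13 had -0.11. Of the 14 subunits, 9 had positive and 5 negative differences. Among regulators and substrates of the APC/C, 4 of 8 rose, with a median of 0.39: Gmnn, geminin, by 0.49, the cyclin genes Ccnb2 by 0.46 and Ccna2 by 0.44, and the inhibitor gene Fbxo5, EMI1, by 0.37 (limma adjusted p of 0.00277, 0.00299, 0.00299 and 0.019).

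Genes of centromere cohesion and Aurora B control had 6 risers among 10 and a median of 0.45. Cdca5, sororin, which protects cohesin, rose by 0.61 (SE 0.08, limma adjusted p = 0.00234), the kinase gene Plk1 by 0.49 and Aurkb, the kinase of the passenger complex, by 0.51. Among further outer kinetochore and checkpoint partners 3 of 10 rose, with a median of 0.15. They were Trip13, an ATPase that remodels MAD2, by 0.56 (SE 0.09, limma adjusted p = 0.00489), Spdl1, spindly, the dynein adaptor downstream of RZZ, by 0.51 and Ska1, a microtubule binder, by 0.55. With probe sets averaged Trip13 had 0.36 and did not pass (adjusted p = 0.0652). Of CENP-A loading and other CCAN genes 1 of 8 rose, the loading factor gene Mis18a by 0.50 (limma adjusted p = 0.0284), with a median of 0.23. Of all tested genes 4.95% rose, and a count of 1 in 8 is too small to set apart from that share. Cenpw and Cenpx, of the CENP-T group, had 0.43 and 0.26 and did not pass. With probe sets averaged Cenpw had 0.47 and passed (limma adjusted p = 0.0161). When each array was left out in turn, Mis18a lost its call in 6 of the 8 fits, Ska1 in 6 and Fbxo5 in 2. With each gene on its own spread Aurkb (adjusted p = 0.0652), Ska1 (0.113) and Mis18a (0.113) lost their calls. The calls of Ska1 (0.0586) and Mis18a (0.0537) also ended with the Y-linked covariate.

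**Figure D3:**
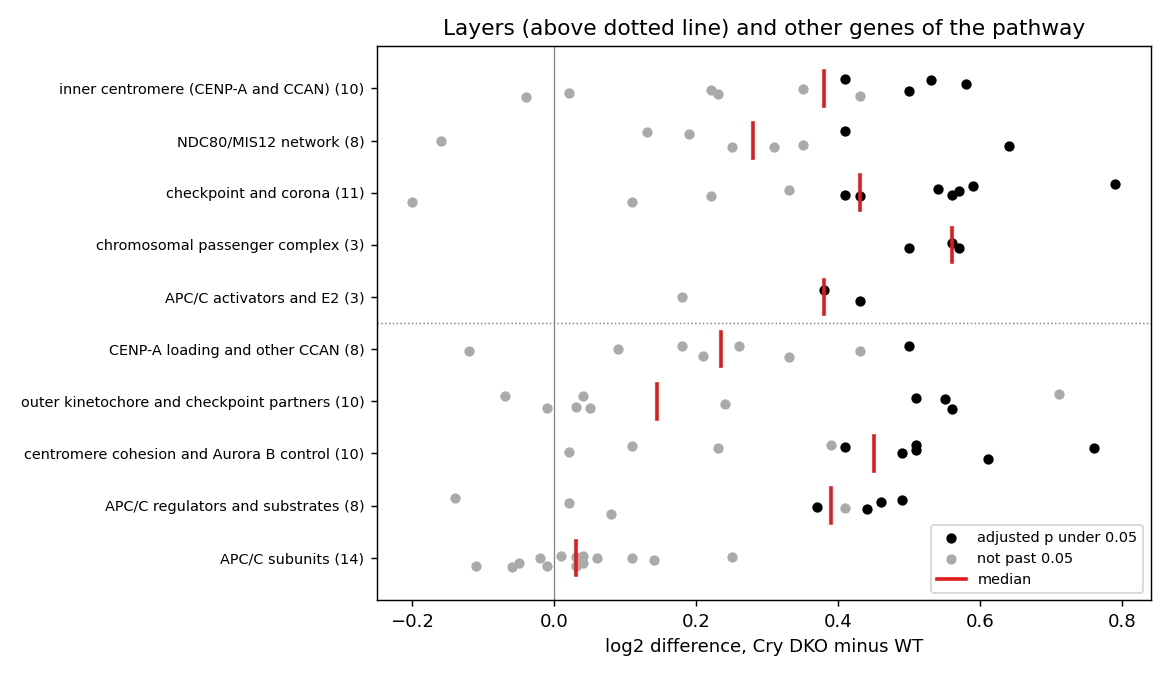
Each point is a tested gene, placed by its log2 difference, Cry DKO minus WT; black marks an adjusted p under 0.05 in limma, the red bar is the list median and the number of tested genes stands after each name. The 14 APC/C subunits lie between -0.11 and 0.25 with no call, while the medians of the 5 layers lie between 0.28 and 0.56.

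The members moved beside other genes of the cell cycle. In a list of DNA replication and S phase genes 22 of 25, or 88%, rose, with a median of 0.41, and in a list of other G2 and mitosis genes 23 of 29, or 79.3%, with a median of 0.41. The members' median was 0.41 as well, with 51.4% called. Of all tested genes 4.95% rose, and their median was -0.01. Examples are Rrm2, a subunit of ribonucleotide reductase, which rose by 0.51, Tk1, thymidine kinase, by 0.57, and Pcna, the replication clamp, by 0.31. Top2a, a topoisomerase of mitotic chromosomes, rose by 0.56, the condensin gene Smc2 by 0.53 and Cdk1, the mitotic kinase, by 0.41. Whether the members' differences depart from those of the other cell cycle genes was not tested.

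Probe sets that measured the same gene mostly gave the same sign. The 36 genes had 67 probe sets, of which 49 were above the floor, and with each of these tested 22 rose and none fell, where 3.67% of all 16347 probe sets rose. Of 10 members with several such probe sets, Cdca8 had 0.56, 0.57 and 0.67, Cdc20 0.38 and 0.44, and Incenp 0.50 and 0.51, each rising. For Bub1b the second probe set had 0.52 (SE 0.09) and passed (limma adjusted p = 0.00763), while the one used had 0.33 and did not (adjusted p = 0.11 in that fit). For Cenpn the second had 0.37 (SE 0.11, adjusted p = 0.0507) with no overlap between genotypes, against 0.02 for the one used. The second probe set of Cenpe had 0.35 and overlapped. All 5 probe sets of Zwint above the floor lay between -0.16 and 0.05 and none passed.

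**Figure D4:**
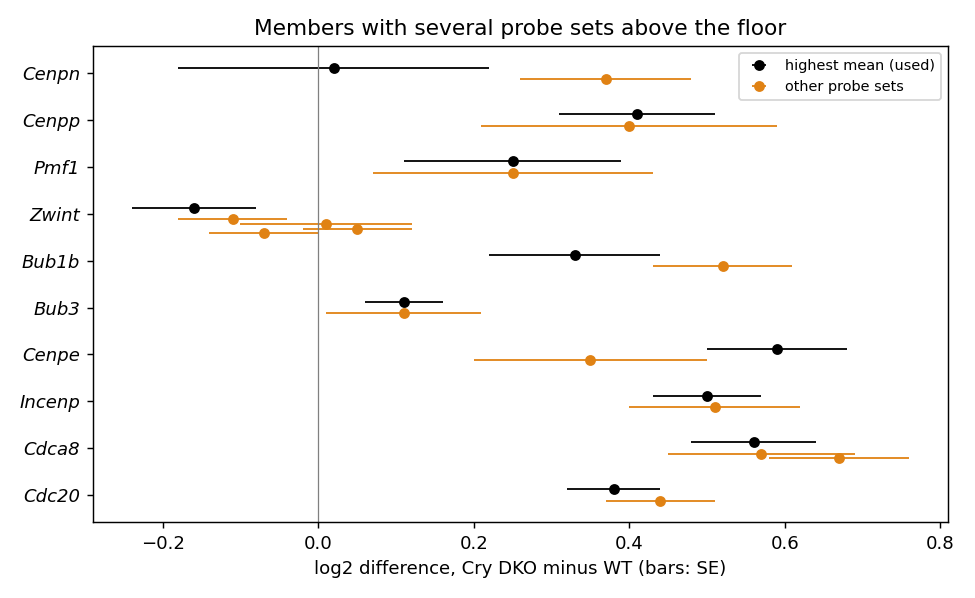
For the 10 members with more than 1 probe set above the floor, the log2 difference, Cry DKO minus WT, is plotted with its SE; black is the probe set of highest mean, which was used, and orange the others. Zwint stays near 0 in all 5, while the 2 probe sets of Cenpn (0.02 and 0.37) and of Bub1b (0.33 and 0.52) are apart.

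The mean over the 35 tested members was 8.54, 8.58, 8.55 and 8.59 in Cry DKO lines 1 to 4 and 8.26, 8.17, 8.19 and 8.25 in WT lines 1 to 4, with SDs of 0.02 and 0.04. Averaging over genes narrows such a spread. Gene by gene, the median SD within a genotype was 0.13 for the members and also 0.13 for all tested genes. WT line 2 was the lowest WT line for 14 of 35 members and Cry DKO line 4 the highest Cry DKO line for 15. Such counts were not made over all tested genes, so they cannot show whether this is particular to the members.

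Markers of macrophages and blood cells rose in the same lines, 10 of 17 with a median of 0.78, against 4.95% of all tested genes. Among them, Cd14 rose by 0.92, Lyz2, lysozyme, by 0.83 and Cd53 by 0.92. The mean of the 17 markers was 9.69, 9.24, 8.73 and 8.99 in Cry DKO lines 1 to 4. In WT lines 1 to 4 it was 8.65, 8.07, 8.35 and 8.62. In WT the lines keep the same order for these markers and for the members. In Cry DKO the line with the highest marker mean, line 1, had the lowest mean of the members. The line means of the members had SDs of only 0.02 in Cry DKO and 0.04 in WT, and these orders were not tested. With the marker mean as a covariate no member passed in limma (smallest adjusted p = 0.0592), where 0.137% of all tested genes rose, and 17 of 35 had an unadjusted p under 0.05, against 16.2% of all tested genes. The members' median was then 0.35 and their median SE 0.14, against 0.41 and 0.09 without the covariate. The covariate itself differs between the genotypes, and the part of such cells in the rise of the members was not tested further. None of the 5 endothelial markers on the table reached the floor.

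**Figure D5:**
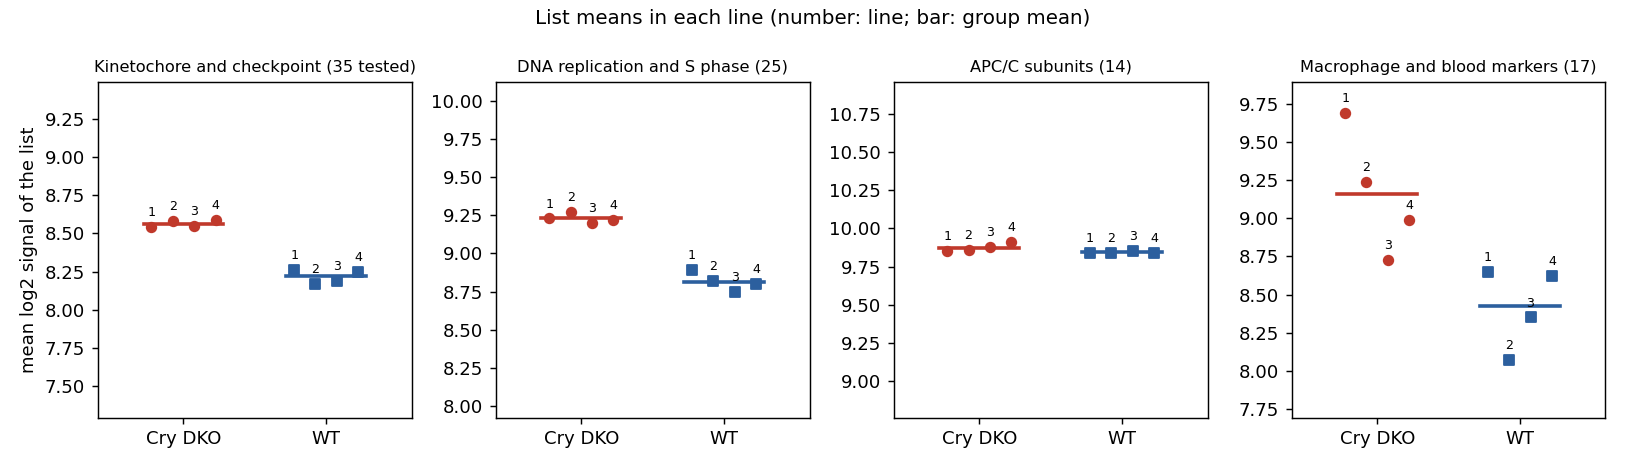
Mean log2 signal of 4 gene lists in each line (red, Cry DKO; blue, WT; numbers are lines, bars group means), on y axes of equal span. The Cry DKO lines lie together above the WT lines for the kinetochore genes (8.54 to 8.59 against 8.17 to 8.26) and for DNA replication (9.20 to 9.27 against 8.75 to 8.89). The APC/C subunits lie at 9.85 to 9.91 against 9.84 to 9.85, and the macrophage markers spread most, at 8.73 to 9.69 against 8.07 to 8.65.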

How the data were processed

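Total RNA (5 ug) of 4 Cry DKO and 4 WT lines was hybridised to Affymetrix arrays, 1 array a line, per the labels. The deposited values lie on a log2 scale (0.0675 to 14.3; base inferred from the range). Per the submitters' processing notes GCOS was used, its version not being listed; no source states the probe summary or normalisation, and the values were used as deposited. Of 30506 probe sets 61 are controls, and the platform annotation pairs 24838 with 1 gene, 658 with several and 4949 with none; 24757 of the 24838 gene identifiers matched assembly GRCm38.p6.

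Genes were represented by their single-gene probe set of highest mean, kept at or above the 40th percentile of means (6.05). limma 3.58.1 in R 4.3.3 (intensity trend, no covariate, Benjamini-Hochberg over 9515 genes, adjusted p threshold 0.05) compared the genotypes and was tested on simulated data. There, with 200 changed genes a run, it called 67% of log2 changes of 0.5 and 93.6% of changes of 1. Smaller changes were not simulated, and a member that did not pass may still differ. Promoters were searched for exact letters on both strands. Alternatives changed the block, normalisation, filter, probe set rule, empirical Bayes step, weights, covariates and arrays. The members and lists were chosen with earlier results of these data known. Named genes were the 3 of smallest p and the 1 of largest p in each layer with every array, other members by difference, and the 3 of smallest p from other lists. Zwint and second probe sets, Fbxo5 among the pathway genes, Pttg1, Espl1, Esco2, Sgo1, Sgo2a, Ska3 and Oip5 were added after their values were seen. The number of arrays limits the precision.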

Additional observations from a re-analysis of the deposited data

Results flagged for a closer look

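Of 114 groups of 4 lines checked, 4 had 1 line far from the other 3, and chance alone gives about 1 in 20. Bub1 was at 9.29 in Cry DKO line 1, against 9.36 to 9.37 in the other Cry DKO lines, a gap that is wide only because those 3 nearly coincide. Cdca8 was at 9.81 in Cry DKO line 4, against 9.54 to 9.58 in the others. Cenpi was at 7.33 in Cry DKO line 1, against 7.54 to 7.57 in the others. Cenpt was at 8.39 in WT line 3, against 8.59 to 8.61 in the others.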

How the results depend on the processing

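Fits that left out 1 array called 14 to 17 members (18 with all arrays), gave a median difference of 0.38 to 0.42 and called 382 to 684 genes in all (873 with all arrays); fewer samples are tested there. The lowest count over all genes was without WT replicate 3. Other counts over all genes that fell by more than 1.5 times were 489 (WT replicate 1 left out), 470 (WT replicate 2), 559 (Cry DKO replicate 2) and 571 (Cry DKO replicate 3). With each gene on its own spread 317 genes and 13 members were called, and with the mean of the Y-linked genes as a covariate 526 genes and 15 members. With the macrophage marker mean as a covariate 35 genes and 0 members were called and the members' median was 0.35; the cause was not tested beyond the larger SE given above. Replicate numbers were not taken to pair the lines: correlations of same-numbered lines were 0.36, 0.12, 0.23 and -0.01, and lines of 3 of the 4 numbers correlated best with their own. A replicate block gave 19 members, 1050 genes and a median of 0.41; Cenpk (adjusted p = 0.0242), Mis12 (0.0349) and, as lower, Col1a1 (0.0263) passed with it, and Cenpl (0.0665) did not. The other alternatives (quantile normalisation, 2 filters, 2 probe set rules, 2 empirical Bayes settings, array weights) called 14 to 18 members, all higher. A floor at the 60th percentile left 25 members to test and averaged probe sets left 33, with 14 called in each. Cenpl lost its call without a floor (limma adjusted p = 0.0602) and with every probe set tested (0.0538). With probe sets averaged, which lets dim ones in, Cenpa and Cenpk were not tested, and Spc25, Cenpf, Cenpp, Trip13 and Smc2 (adjusted p = 0.0576) lost their calls. Near-zero differences changed sign: Cenpn to -0.01 with the macrophage covariate, -0.07 without Cry DKO replicate 2 and -0.20 without WT replicate 1; Cenpt to 0.01 with array weights and to 0.04 without Cry DKO replicate 4 (-0.12 to 0.04 over the fits that left out 1 array); and the fibroblast marker Fbln2 to 0.04 with the mean of all probe sets. Without WT replicate 4, Cenpk (adjusted p = 0.0483) and Cenpq (0.0329) passed. Of the dim members, Nsl1 was below the floor and Cenpm, at 6.43 in Cry DKO and 6.21 in WT lines, had an SE of 0.19. The brighter Cenpn, at 7.91 and 7.89, had an SE of 0.20, and the part of dimness in these SEs was not tested.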

Other observations

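Some values of the wider pathway were singled out after they were seen. Pttg1, securin, the APC/C substrate that holds separase in check, had 10.92 ± 0.06 in Cry DKO and 11.06 ± 0.06 in WT lines (SD, n = 4), without overlap. Its difference of -0.14 did not pass (limma adjusted p = 0.125), while Espl1, separase itself, had 0.41 (adjusted p = 0.0515). Of the cohesion genes, the acetyltransferase gene Esco2 was higher by 0.76 (SE 0.17, limma adjusted p = 0.0213). The shugoshin genes Sgo1 and Sgo2a rose by 0.51 and 0.41. Leaving out each array in turn ended the calls of Sgo1, Sgo2a and Esco2 in 7, 4 and 1 of 8 fits. Ska3 had a difference of 0.71 that did not pass (SE 0.25, limma adjusted p = 0.108), with Cry DKO lines spread by an SD of 0.54. Oip5, a CENP-A loading gene below the floor, had 5.88 ± 0.26 in Cry DKO and 5.32 ± 0.18 in WT lines (SD, n = 4) without overlap, and was not tested.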
